A study of Mus musculus with 4 samples.

Results

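The Ets family genes of blood and endothelium were examined for occupancy by RYBP, a subunit of non-canonical Polycomb repressive complex 1. The 10 genes were Etv2, Fli1, Erg, Ets1, Ets2, Elk3, Etv6, Elf1, Elf4 and Gabpa, chosen by name out of 22202 protein-coding genes of the mm9 annotation. No measured value entered the choice, although results of these data were known when it was made. RYBP chromatin immunoprecipitation and sequencing (ChIP-seq) was carried out in 2 replicates of wild-type mesoderm, with 2 input samples for which no peak file was analysed. The cells were FLK1+ and, by the series' design text, PDGFRa-. They came from embryoid bodies (floating aggregates in which embryonic stem cells differentiate) of C57Bl/6 X Sv129 background at day 3.75. The study's methods give a slightly later day. They describe isolation of FLK1+ cells on magnetic columns and name no selection on PDGFRa for ChIP. No group differed in genotype or treatment, so the comparisons are between loci, between start sites of 1 gene and between replicates. The peak lists held 14794 peaks in replicate 1 and 18154 in replicate 2. RNA was not measured in these samples, so the FLK1+ label could not be checked against markers.

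Ets factors share a DNA-binding domain that recognises a GGAA core. ETV2 acts early and transiently in mesoderm and is required for blood and endothelial cells to form, after which FLI1, ERG and ETS1 maintain endothelial and haematopoietic gene expression. ELK3 and ETV6 are chiefly repressors, ELF1 and ELF4 act in haematopoietic cells, and GABPA is a broadly expressed regulator of housekeeping and mitochondrial genes. RYBP-containing complexes deposit ubiquitin on histone H2A and are known to gather at CpG islands, which are stretches rich in unmethylated CG dinucleotides.

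RYBP occupied the start site of 9 of the 10 Ets genes, and Gabpa was the exception. A start site counted as occupied when a merged region, which is a stretch called as a peak in at least 1 replicate, lay within 2.5 kb of the start of a protein-coding transcript. Among all 22202 genes 53.4% had such a region. A region found in both replicates was present at 7 start sites (Etv2, Fli1, Ets1, Ets2, Elk3, Elf1 and Elf4), against 36.8% of all genes. The Erg start region was found in replicate 1 alone and the Etv6 start region in replicate 2 alone. At Etv2 and Erg the region lay near a start without covering one. Replicate 1 had a peak at the start site of 8 members (40.4% of all genes) and replicate 2 likewise at 8 (50.5% of all genes).

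The same 9 genes had a merged region at the locus, taken as the gene body with 5 kb upstream, where the share over all genes was 57.1%. With regions found in both replicates, the 7 genes above had one at the locus, against 38.9% of all genes. The loci held 15 merged regions. Of these, 9 lay at start sites, 4 in gene bodies away from start sites and 2 upstream away from start sites. The 9 start-site regions included 7 found in both replicates. Of the 6 other regions, 1 was found in both and 5 in replicate 2 alone. Over all genes, 62.6% of start-site regions and 18.1% of gene-body regions were found in both replicates. Since there is 1 group with 2 replicates, no test between groups could be made, and counts are read against the shares over all genes.

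**Figure D1:**
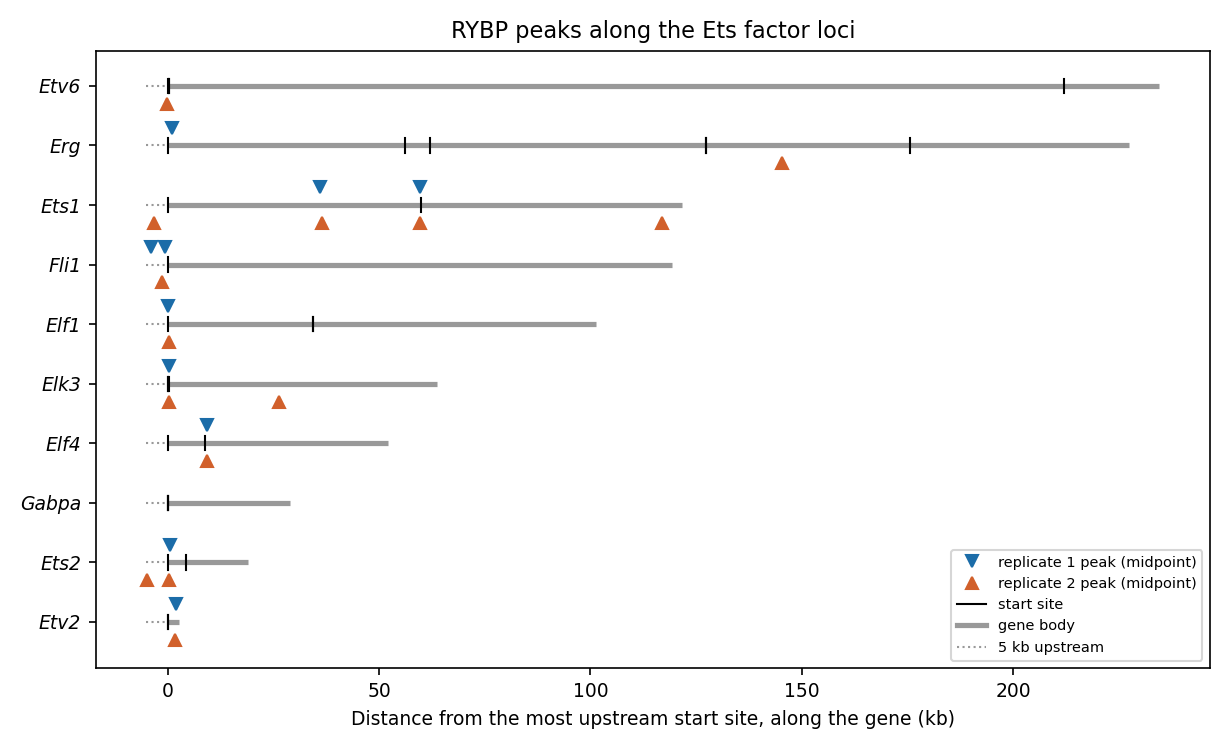
RYBP peaks along the 10 loci, longest gene at the top. The x axis is the distance in kb from the most upstream start site along the gene, with triangles at peak midpoints (replicate 1 above the gene, replicate 2 below) and black ticks at start sites of protein-coding transcripts. Most peaks sit at a start site, Ets1 carries peaks at 4 positions, and Gabpa carries none.

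The strength of the start-site peaks was moderate. Fold enrichment is the linear ratio of pile-up to local background given by the authors' peak caller, and the highest start-site peak of a gene was taken. The median over the 8 members called in replicate 1 was 3.39, against 3.53 over 8979 genes called. In replicate 2 it was 3.91 over 8 members, against 3.9 over 11216 genes. The members ran from 2.76 to 3.91 in replicate 1 and from 3.43 to 5.36 in replicate 2. Only Elk3 in replicate 2 was above the 90th percentile of all genes called, which was 4.49 in replicate 1 and 5.27 in replicate 2. The −log10 q of the members ranged from 1.12 to 3.51 in replicate 1 and from 1.93 to 5.72 in replicate 2.

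**Figure D2:**
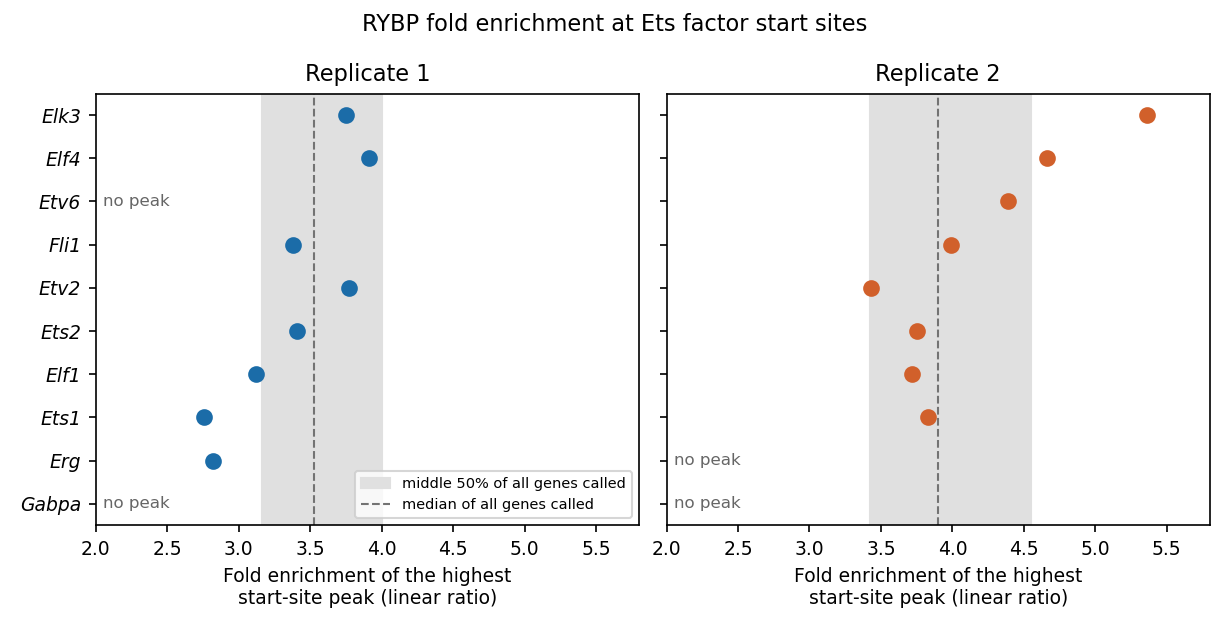
Fold enrichment (linear ratio) of the highest start-site peak of each gene in replicate 1 (left) and replicate 2 (right). Each point is 1 peak value with no error of its own, the grey band spans the quartiles of all genes called in that replicate (3.16 to 4 and 3.42 to 4.55) and the dashed line is their median. Elk3 and Elf4 lie above the medians in both replicates, Elf1, Ets1 and Erg lie below the band in replicate 1, and Gabpa had no peak.

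Start sites that lay inside a region were CpG-rich. The members have 28 annotated start positions of protein-coding transcripts, some of them neighbours of the same promoter. CpG density was counted over 500 bp on each side of each start, and 3 CpG per 100 bp was taken as the lower limit of a CpG-rich start. Of the 15 CpG-rich starts, 10 lay inside a merged region and 11 had one within 2.5 kb. Of the 13 other starts, 0 lay inside a region and 3 had one within 2.5 kb, at Etv2 and Erg. By gene, 8 members had a CpG-rich start and 7 of these had a start-site region, 6 of them in both replicates. Over all genes, 81.4% of those with a CpG-rich start had a start-site region (57.8% in both replicates), against 10.1% of those without (4.25% in both replicates). For any start-site region, the share of the CpG-rich members was close to that of CpG-rich genes as a whole. For regions found in both replicates it was 6 of 8 against 57.8%, and a set of 8 genes is too small to read a difference from this. The 2 members without a CpG-rich start, Etv2 and Erg, both had a start-site region, that of Erg in replicate 1 alone.

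**Figure D3:**
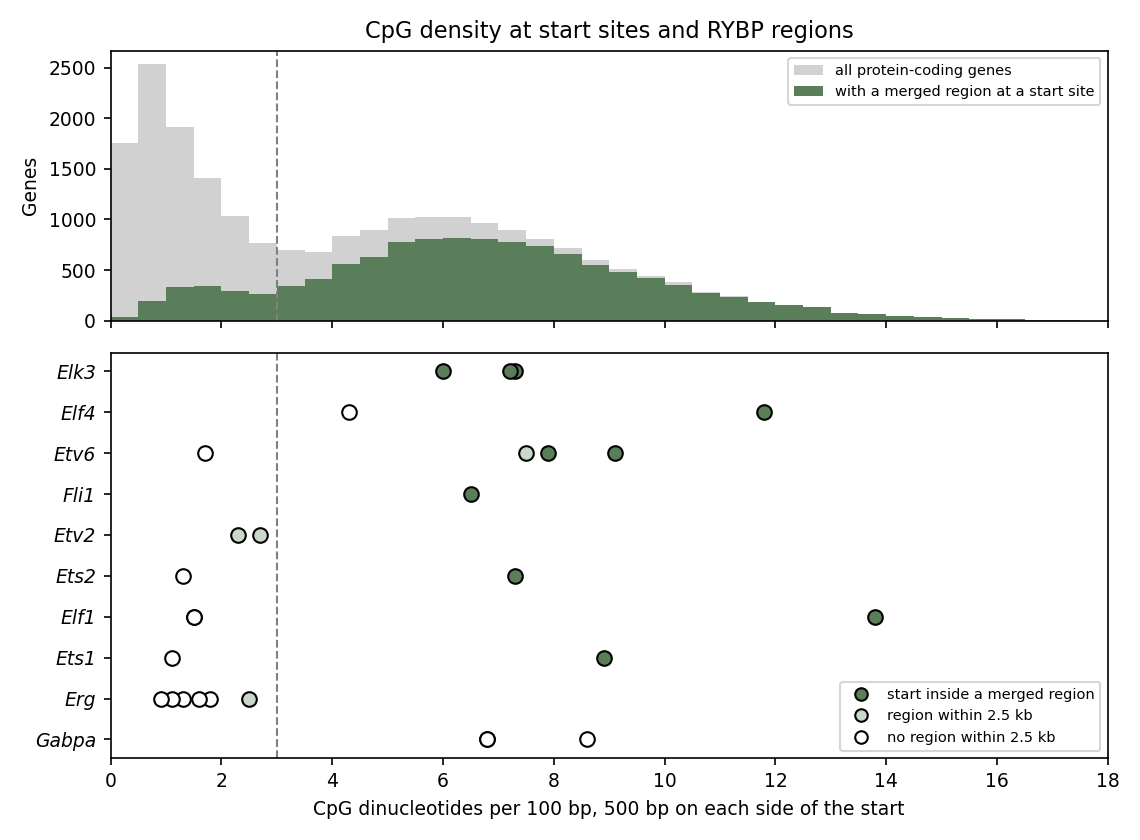
Top, number of protein-coding genes by CpG density at the most upstream start (CpG per 100 bp over 500 bp on each side), with the genes that had a merged region at any start site in green. Bottom, each annotated start of the 10 genes on the same axis, filled by whether it lay inside a region, and the dashed line at 3 CpG per 100 bp. All 10 starts inside a region lie to the right of the line, and Gabpa lies there without a region.

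Promoter sequences from the mm9 genome are shown for the ends of the order, from 250 bases before to 50 after the most upstream start, 5′ to 3′ on the gene's strand, with each CG in capitals. Elk3 had the highest mean fold enrichment, Gabpa had no region, and Etv2 and Erg were the members with no CpG-rich start. The Elk3 window holds 33 CG dinucleotides, the Gabpa window 25, the Erg window 16 and the Etv2 window 8, beside a median of 12 over all genes.
Elk3, chr10:92773831-92774130: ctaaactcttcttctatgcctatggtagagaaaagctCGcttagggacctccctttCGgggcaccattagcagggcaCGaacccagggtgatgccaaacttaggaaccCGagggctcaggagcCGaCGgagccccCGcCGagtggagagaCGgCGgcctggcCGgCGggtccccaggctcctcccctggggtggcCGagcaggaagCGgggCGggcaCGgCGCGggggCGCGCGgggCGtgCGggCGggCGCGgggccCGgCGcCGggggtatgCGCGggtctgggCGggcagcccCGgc
Gabpa, chr16:84834920-84835219: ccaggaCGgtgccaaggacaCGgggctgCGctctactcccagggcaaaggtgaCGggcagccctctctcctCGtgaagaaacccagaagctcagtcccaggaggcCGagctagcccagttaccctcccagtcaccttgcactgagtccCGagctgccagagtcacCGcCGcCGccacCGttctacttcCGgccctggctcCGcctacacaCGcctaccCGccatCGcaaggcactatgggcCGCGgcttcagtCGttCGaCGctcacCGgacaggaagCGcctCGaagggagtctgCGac
Etv2, chr7:31421259-31421558: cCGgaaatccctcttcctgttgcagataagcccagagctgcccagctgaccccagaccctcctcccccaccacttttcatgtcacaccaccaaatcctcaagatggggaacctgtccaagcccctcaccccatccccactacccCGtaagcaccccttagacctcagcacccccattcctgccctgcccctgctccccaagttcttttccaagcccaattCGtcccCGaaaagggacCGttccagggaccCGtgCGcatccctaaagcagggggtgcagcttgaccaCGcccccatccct
Erg, chr16:95808151-95808450: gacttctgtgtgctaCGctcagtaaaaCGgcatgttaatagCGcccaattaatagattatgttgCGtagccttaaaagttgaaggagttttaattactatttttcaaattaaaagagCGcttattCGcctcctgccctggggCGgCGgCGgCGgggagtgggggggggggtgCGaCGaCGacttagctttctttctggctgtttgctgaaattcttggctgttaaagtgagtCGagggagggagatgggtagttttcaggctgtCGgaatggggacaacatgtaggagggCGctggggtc

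The Gabpa window held more CG dinucleotides than those of Etv2 and Erg. The windows were chosen for occupancy or CpG content, so their CG counts cannot show how the members order by occupancy. The start-site regions of Etv2 and Erg also lay outside the windows printed for these genes. Sites for Ets and GATA factors were also sought on both strands of the window at the most upstream start of each gene. The letters CCGGAAGT, a strong Ets site, were present in 1 of the 10 members, Gabpa, and in 4.86% of all promoters. The letters AGATAA, which form a binding site of blood factors such as those encoded by the Gata genes, were present in 1 member, Etv2, and in 10.2% of all promoters. These are descriptions of the letters in the window and say nothing of binding.

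Etv2 (chromosome 7, 31418635 to 31421308, minus strand) encodes the factor at the head of the haemato-endothelial programme. Its single merged region, from 31418313 to 31420801, did not touch either annotated start. It covered 81% of the gene, including exons with coding sequence, and its nearest edge lay 365 bp downstream of the closer start. Fold enrichment was 3.77 in replicate 1 and 3.43 in replicate 2, with −log10 q of 2.98 and 1.93 (mean fold 3.6 ± 0.24, SD, n = 2). The replicate 1 peak was 968 bp wide and lay wholly within the 2488 bp peak of replicate 2. Etv2 was the 1 member with the higher fold in replicate 1, whereas 6 of the 7 members called in both were higher in replicate 2. Over all genes called in both, 77.8% were higher in replicate 2, with a median ratio of replicate 2 to replicate 1 of 1.14. The Etv2 value exceeded 64% of genes called in replicate 1 and 25.6% in replicate 2. The region held 3.7 CpG per 100 bp, the lowest of the 9 start-site regions, and 13.7% of genes with a start-site region had one at least as wide. The centre of the stretch called in both replicates lies in the gene body and is shown on the minus strand with each CG in capitals. It holds 7 CG dinucleotides in 300 bases.
Etv2 gene body, chr7:31419227-31419526: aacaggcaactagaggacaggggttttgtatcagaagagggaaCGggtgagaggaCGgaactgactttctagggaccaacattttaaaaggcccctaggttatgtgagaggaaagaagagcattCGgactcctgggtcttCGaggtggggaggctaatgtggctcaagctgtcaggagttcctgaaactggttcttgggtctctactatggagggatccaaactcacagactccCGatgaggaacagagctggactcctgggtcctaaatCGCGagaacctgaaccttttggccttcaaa

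Fli1 (chromosome 9, 32229793 to 32348974, minus strand) encodes an activator of endothelial and megakaryocytic genes. It had the widest start-site region of the members, 6029 bp from 32347705 to 32353734. The region reached 1268 bp into the gene, over an exon with coding sequence, and 4760 bp upstream of the start. Only 2.28% of genes with a start-site region had one at least as wide, and the median over all genes was 1070 bp. Replicate 1 had 2 peaks there, of 2353 bp and 1678 bp, with fold enrichments of 3.38 and 2.97. Replicate 2 had a single peak of 5217 bp with a fold enrichment of 3.99. The higher replicate 1 peak and the replicate 2 peak both covered the start (mean fold 3.68 ± 0.43, SD, n = 2), and the distal replicate 1 peak lay wholly upstream. No region was present in the remaining body of the gene, which is 119182 bp long. The Fli1 fold enrichment exceeded 40.3% of genes called in replicate 1 and 54.4% in replicate 2.

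**Figure D4:**
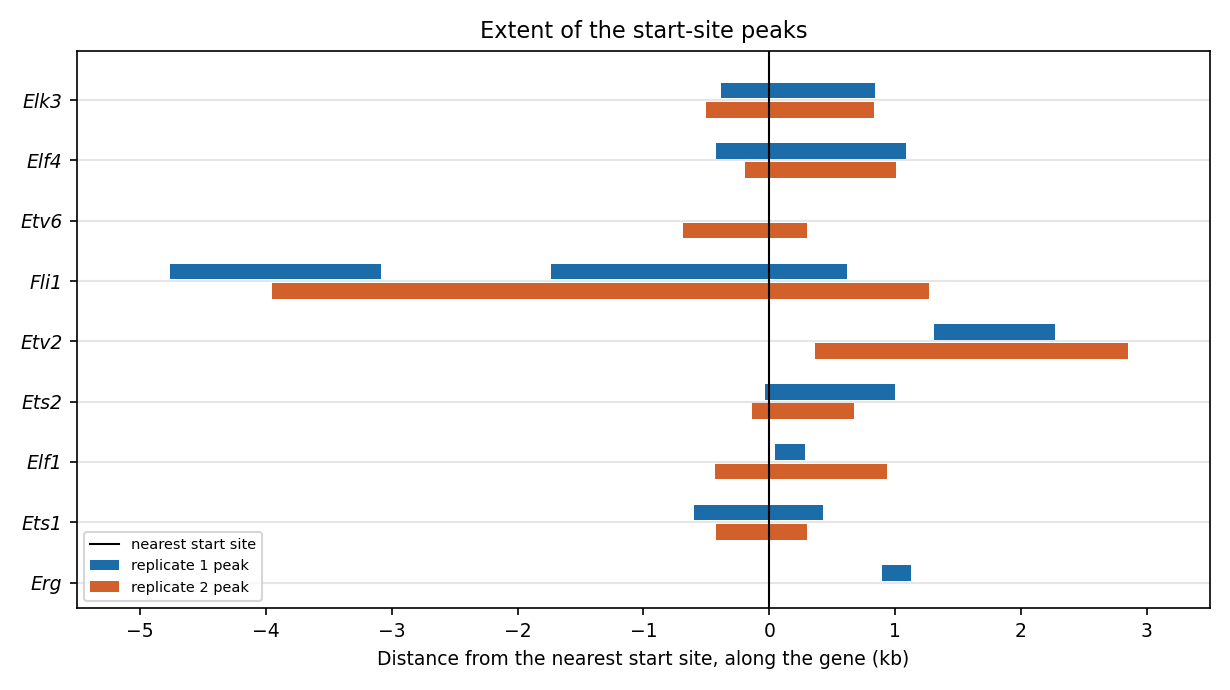
Extent of the start-site peaks around the start nearest to the merged region, in kb along the gene (negative is upstream), with replicate 1 in blue and replicate 2 in orange. Peaks of Elk3, Elf4, Fli1, Ets2 and Ets1 cover the start in both replicates. The Etv2 and Erg peaks lie downstream of the start, and Fli1 peaks extend furthest upstream.

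Erg (chromosome 16, 95580776 to 95808200, minus strand), whose product maintains endothelial identity and haematopoietic stem cells, has 6 annotated start positions spread over the gene. None of them lay inside a region. A peak of 234 bp in replicate 1 alone, from 95807071 to 95807305, lay in an intron 895 bp downstream of the most upstream start. Its fold enrichment was 2.82 and its −log10 q 1.45, so that 3.93% of genes called in replicate 1 were lower. The start itself had 2.5 CpG per 100 bp, but this short stretch held 10.3. A second region, from 95662529 to 95663226, lay in an intron and was found in replicate 2 alone at 3.24-fold enrichment (−log10 q 1.39). No Erg region was found in both replicates.

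Ets1 (chromosome 9, 32443806 to 32565405, plus strand), expressed in endothelium and lymphoid cells, carried 4 regions, the most of any member. Its 2 annotated starts differed. The downstream start at 32503627 lay inside a region of 1029 bp that covered an exon with coding sequence, with fold enrichments of 2.76 and 3.83 (mean 3.3 ± 0.757, SD, n = 2) and −log10 q of 1.12 and 3.6. The upstream start at 32443806 had no region within 2.5 kb. A replicate 2 peak lay 2754 bp upstream of it, with 2.92-fold enrichment and the lowest −log10 q (1.01) of any peak at the 10 loci. CpG density was 8.9 per 100 bp at the downstream start and 1.1 at the upstream start. Both promoters are shown on the plus strand with each CG in capitals, 35 in the downstream window and 6 in the upstream window.
Ets1 upstream start, chr9:32443556-32443855: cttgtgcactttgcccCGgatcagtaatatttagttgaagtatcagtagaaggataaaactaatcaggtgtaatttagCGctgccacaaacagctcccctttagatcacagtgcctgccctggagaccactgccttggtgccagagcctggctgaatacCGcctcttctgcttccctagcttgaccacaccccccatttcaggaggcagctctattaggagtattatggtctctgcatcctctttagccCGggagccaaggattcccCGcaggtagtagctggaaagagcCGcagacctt
Ets1 downstream start, chr9:32503377-32503676: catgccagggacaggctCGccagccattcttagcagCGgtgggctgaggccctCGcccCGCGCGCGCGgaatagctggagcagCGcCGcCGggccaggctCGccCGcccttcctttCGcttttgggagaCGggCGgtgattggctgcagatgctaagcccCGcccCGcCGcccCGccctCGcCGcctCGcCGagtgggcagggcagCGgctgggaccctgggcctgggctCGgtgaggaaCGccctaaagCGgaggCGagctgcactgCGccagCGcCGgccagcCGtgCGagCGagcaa

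Ets1 also held the 1 region away from start sites that both replicates called, in an intron from 32479764 to 32480796, with fold enrichments of 3.01 and 3.14 (mean 3.08 ± 0.0951, SD, n = 2). The −log10 q of this region was low, 1.3 in replicate 1 and 1.56 in replicate 2. The replicate peaks were 349 bp and 889 bp wide and shared the 206 bases below, which hold 6 CG dinucleotides. A further intronic peak of 224 bp, from 32560516 to 32560740, was found in replicate 2 alone with a fold enrichment of 3.61.
Ets1 intron, chr9:32479908-32480113: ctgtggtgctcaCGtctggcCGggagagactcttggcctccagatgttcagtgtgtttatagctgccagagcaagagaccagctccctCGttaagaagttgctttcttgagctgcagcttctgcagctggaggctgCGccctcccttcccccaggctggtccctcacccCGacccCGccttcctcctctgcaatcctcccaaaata

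Ets2 (chromosome 16, 95923682 to 95942658, plus strand), a factor that responds to MAP kinase signalling, had a region of 1138 bp over its most upstream start, with fold enrichments of 3.41 and 3.75 (mean 3.58 ± 0.244, SD, n = 2). CpG density was 7.3 per 100 bp at this start. A second start at 95927946, with 1.3 CpG per 100 bp, had no region within 2.5 kb. A peak in replicate 2 alone, with a fold enrichment of 3.12, lay 4458 bp upstream of the gene. Regions upstream away from start sites were thus present at Ets1 and Ets2, 2 of the 10 members, against 5.17% of all genes, and neither was found in replicate 1.

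The repressors Elk3 and Etv6 both had a start-site region, found in both replicates at Elk3 and in replicate 2 alone at Etv6. Elk3 (chromosome 10, 92710159 to 92773880, minus strand), a target of MAP kinase signalling with a role in vessel growth, had a region of 1342 bp over all 3 of its annotated starts. Fold enrichment was 3.75 in replicate 1 and 5.36 in replicate 2, with −log10 q of 3.51 and 5.72 (mean fold 4.56 ± 1.14, SD, n = 2). The SD of the fold enrichment was the widest of the 7 members called in both. The replicate 2 value exceeded 91.1% of genes called, and the replicate 1 value 62.9%. A second Elk3 region of 414 bp, over an exon with coding sequence in the gene body, was found in replicate 2 alone with a fold enrichment of 3.13. Etv6 (chromosome 6, 133985718 to 134220176, plus strand), needed for haematopoietic stem cells and known from leukaemic fusions, had 1 region of 985 bp, which covered the most upstream of its 4 annotated starts and the next one. It was found in replicate 2 alone, where 4.39-fold enrichment (−log10 q 3.88) was higher than 70.1% of genes called. Replicate 1 had no peak at Etv6, although its most upstream start had 9.1 CpG per 100 bp. The peak list of replicate 1 gives no value for this site.

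Elf1 (chromosome 14, 79881001 to 79982283, plus strand) had the most CpG-rich start of the members, with 13.8 CpG per 100 bp. Its region of 1363 bp held fold enrichments of 3.12 and 3.72 (mean 3.42 ± 0.425, SD, n = 2). The replicate 2 peak covered the start, whereas the replicate 1 peak was 242 bp wide and began just downstream of it. The start of Wbp4, transcribed in the opposite direction, lay inside the same region, so that the signal cannot be assigned to either gene. It was the 1 start-site region of a member that held the start of another gene. The downstream starts of Elf1, with 1.5 CpG per 100 bp, had no region within 2.5 kb.

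Elf4 (chromosome X, 45764223 to 45816309, minus strand), which encodes a factor of lymphoid and natural killer cells, is X-linked. Of 927 X-linked genes, 19.4% had a start-site region and 9.71% had one found in both replicates. Elf4 had a region of 1510 bp with fold enrichments of 3.91 and 4.66 (mean 4.29 ± 0.53, SD, n = 2), above 70.8% and 78.2% of genes called. The region covered the downstream start at 45807346, with 11.8 CpG per 100 bp. The upstream start at 45816309, with 4.3 CpG per 100 bp, lay 8540 bp away from any region and was the 1 CpG-rich start of an occupied member with no region within 2.5 kb. Both promoters are shown on the minus strand with each CG in capitals, 27 in the downstream window and 14 in the upstream window.
Elf4 upstream start, chrX:45816260-45816559: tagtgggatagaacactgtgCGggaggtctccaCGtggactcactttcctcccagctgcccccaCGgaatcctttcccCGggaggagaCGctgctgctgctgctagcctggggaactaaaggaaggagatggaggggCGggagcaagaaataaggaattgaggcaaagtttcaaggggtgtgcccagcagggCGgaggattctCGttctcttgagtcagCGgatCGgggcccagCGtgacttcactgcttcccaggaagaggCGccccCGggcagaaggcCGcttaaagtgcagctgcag
Elf4 downstream start, chrX:45807297-45807596: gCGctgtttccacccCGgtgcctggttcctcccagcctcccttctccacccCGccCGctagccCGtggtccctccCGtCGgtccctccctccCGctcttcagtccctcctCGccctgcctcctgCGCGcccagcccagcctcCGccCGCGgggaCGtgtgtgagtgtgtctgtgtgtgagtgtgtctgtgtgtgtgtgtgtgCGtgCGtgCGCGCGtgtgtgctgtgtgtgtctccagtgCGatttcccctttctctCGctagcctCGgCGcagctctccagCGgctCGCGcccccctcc

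Gabpa (chromosome 16, 84835170 to 84864024, plus strand) had no merged region at its locus. The nearest region lay 59138 bp from its most upstream start. Its starts had 6.8 to 8.6 CpG per 100 bp, and it shares the promoter with Atp5j, a subunit gene of mitochondrial ATP synthase that is transcribed in the opposite direction. Absence of a call is not absence of RYBP, since the lists hold no values below the caller's threshold and no read counts.

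Gene bodies were then compared with start sites. Erg, Ets1 and Elk3 had a region in the gene body away from start sites, 3 of 10 members against 13.1% of all genes. A body region found in both replicates was present at 1 member, Ets1, against 4.23% of all genes. Without replicate 2, Ets1 was likewise the 1 member with a peak in the gene body. All 3 genes are long. Among 4826 genes of at least 50 kb, 22.9% had a body region and 6.2% had one found in both replicates. Of the members, 7 were of that length, and 3 of these had a body region, Ets1 alone in both replicates. The 4 body regions had a median width of 556 bp, against 1342 bp for the 9 start-site regions. Their fold enrichment in replicate 2, from 3.13 to 3.61, lay within or below the range of 3.43 to 5.36 of the start-site regions. The 6 regions away from start sites held 1.37 to 2.52 CpG per 100 bp, and the start-site regions 3.7 to 12.2, so the ranges did not overlap. Over all merged regions, the medians were 6.23 at start sites and 1.87 in gene bodies.

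Of the 16 other Ets family genes, 9 had a start-site region and 6 had one found in both replicates. These shares, 56.2% and 37.5%, were close to the 53.4% and 36.8% of all genes. The 3 with the highest mean fold enrichment were Etv5 (4.28 and 5.33), Fev (3.77 and 4.93) and Etv4 (3.8 and 4.81), of which Etv4 and Etv5 act downstream of FGF signalling and Fev in serotonergic neurons. No start-site region was present at Elk1, Elf5, Ehf, Spic, Spib, Spdef or Sfpi1, the last of which encodes the myeloid factor PU.1. Of these, Spib, Spdef and Sfpi1 had regions in the gene body. The median fold enrichment over the family genes called was 3.18 in replicate 1 and 4.81 in replicate 2. Over all genes called it was 3.53 and 3.9, so the family genes were lower in replicate 1 and higher in replicate 2. Of 11 blood and endothelial genes known to carry Ets-dependent enhancers, 7 had a start-site region and 6 had one found in both replicates. The shares were 63.6% and 54.5%, against the same 53.4% and 36.8% of all genes. The 4 without one were the endothelial genes Tek, Tie1, Cdh5 and Pecam1. Of these, Tie1 had a region in the gene body, with a peak in replicate 1 alone (3.44), and the others had no region at the locus. The study itself names Cdh5 among genes bound by both SCL and RYBP, under its own assignment of peaks to genes. The genes with a start-site region, named after their values were seen, were the endothelial receptor genes Kdr and Eng and the transcription factor genes Tal1, Lmo2, Lyl1, Gata2 and Hhex. In all of these but Eng, which had 1 peak region from each replicate (2.83 and 3.05), a start-site region was found in both replicates. These lists are small, and no test between them was made.

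**Figure D5:**
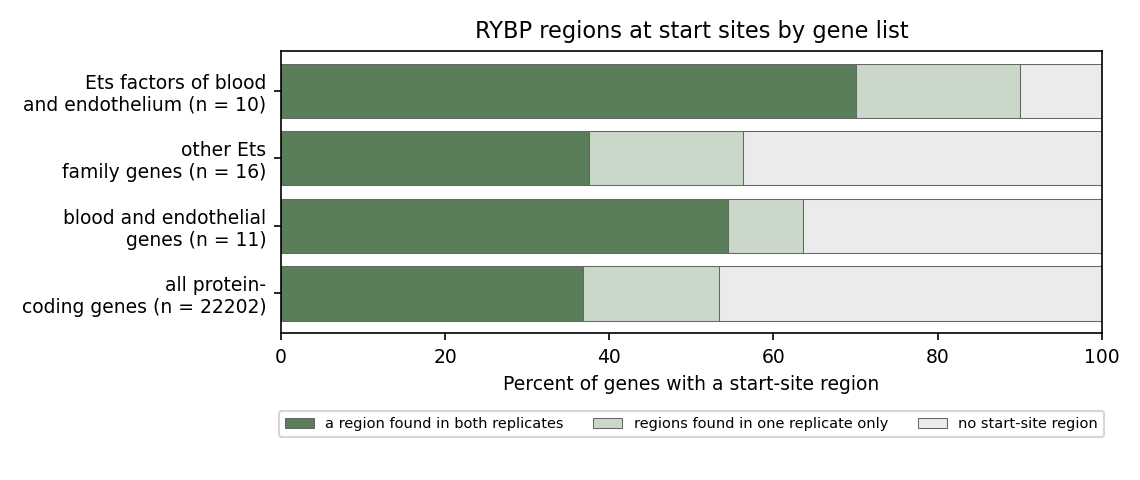
Percent of genes with a merged region at a start site, divided into genes with a region found in both replicates, genes whose regions were each found in one replicate only, and genes with none. Among the 10 Ets factors of blood and endothelium 70% fall in the first class, against 37.5% of the 16 other Ets family genes, 54.5% of the 11 blood and endothelial genes and 36.8% of all genes.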

How the data were processed

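RYBP ChIP-seq peaks of 2 replicates were analysed, grouped by the antibody named in the labels (anti DEDAF, a synonym of RYBP), although the series' design text mentions SCL. According to the methods and processing notes, paired-end reads were aligned to mm9 with Bowtie 1.1.2b, duplicates were removed and peaks were called in each replicate with MACS2 2.0.10 in broad mode. The lists deposited by the authors give a fold enrichment (a linear ratio), −log10 p and −log10 q, and a score that is the −log10 q times 10, cut to a whole number. A further deposited list holds merged regions without values. All 22409 matched the union of both replicates' peaks once replicate 2 starts were moved by 1 bp, so starts are uncertain by 1 bp. A list holds called peaks alone, these files give no read depth, and no interval was derived from it. The study lists more mapped reads for replicate 1, the library with fewer peaks. The design text calls the replicates independent differentiations.

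Genes and starts came from GENCODE vM1 and sequences from the genome of the same build (samtools 1.23.1, pysam 0.24.0, pandas 2.3.3). An overlap of 1 bp counted, and alternatives were other windows, 50% overlap, stricter peaks and single replicates. The interval code was tested on simulated peaks. The text names all 10 members with their start-site and body regions, other genes with a start within 2.5 kb of these regions, and, in the other lists, genes without a start-site region and the 3 family genes of highest mean fold enrichment. Promoters were printed for both ends of the order of fold enrichment and for members without a region, and those of Etv2, Erg, Ets1 and Elf4 for their CpG content or differing starts. The members and lists were chosen with earlier results of these data known.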

Additional observations from a re-analysis of the deposited data

How the results depend on the processing

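The count of members with a start-site region ran from 7 to 9 and with a region at the locus from 7 to 9 under the alternatives run. Erg and Etv6 were lost with regions found in both replicates, Erg also with peaks of −log10 q 2 or more and, at the start site, with peaks of 3-fold or more, and Ets1 and Elf4 with the most upstream start alone. Windows of 1 kb and 5 kb and 50% overlap changed no member. The number of members with a body region was 1 in place of 3, Ets1, both with regions found in both replicates and at −log10 q of at least 2. The Ets1 region that remained was not the same in these settings. The one found in both replicates had −log10 q of 1.3 and 1.56. The one kept at −log10 q of at least 2 was the 224 bp peak of replicate 2 alone (2.1). The number of merged regions at the loci was 8 with regions found in both replicates and 9 at −log10 q of at least 2, in place of 15. When either replicate was left out, there were 10 to 14 peaks at the loci, 1 to 3 members with a body region, 8 with a start-site peak, and 8 to 9 with a peak at the locus. Replicate 1 alone lacked Etv6 and the Elk3 and Erg body regions, and replicate 2 alone lacked the Erg start region. At −log10 q of at least 2, 44.8% of all genes had a start-site region and 6.13% a gene-body region, against 53.4% and 13.1% in the main setting. With peaks of 3-fold or more these shares were 50.7% and 11.4%. With regions found in both replicates they were 36.8% and 4.23%. Median fold enrichments moved by less than the SD between the replicate medians, 0.366. The largest move, in replicate 1 from 3.39 to 3.75 at −log10 q of at least 2, came close to it. That SD rests on 2 medians and does not measure the uncertainty of either. No paired analysis was possible because every result is a count or value with no test, and the numbered inputs have no values here.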

Other observations

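Fli1 and Ets1 lie head to head on chromosome 9, with 94831 bp between the gene bodies, and Erg and Ets2 lie head to head on chromosome 16, with 115481 bp between them. These intervals were examined after the values were seen. The Fli1 to Ets1 interval held 5 merged regions, 1 of them in both replicates, which was the Fli1 start region itself. A peak of 451 bp in replicate 2 alone (fold enrichment 3.54) lay 5001 bp upstream of the Fli1 start, just outside the locus as defined. Peaks of 380 bp and 683 bp in replicate 1 alone (3.1 and 3.12) lay 22652 bp and 24588 bp from the start, and the remaining one was the peak upstream of Ets1. The Erg to Ets2 interval held 3 merged regions, 1 of them in both replicates, which was the Ets2 start region. A peak of 228 bp in replicate 1 alone (3.43) lay 61605 bp from the Erg start.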
